A study of Mus musculus with 3 samples.

Results

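Imprinted genes are expressed mainly from the copy inherited from 1 parent, and many of them set how much the embryo, the placenta and their stem cells grow. The 10 imprinted growth genes described here are Dlk1, Meg3, Rian, H19, Igf2, Cdkn1c, Grb10, Plagl1, Phlda2 and Peg3. They were read as every probe set on the array whose annotation holds only that gene symbol. This gave 32 probe sets for 9 of the 10 genes, out of 34945 probe sets with 1 symbol for 18193 genes. H19 had no probe set of its own.

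Embryoid bodies are clusters of differentiating embryonic stem cells grown in suspension. All were mouse cells of the strain 129S7/SvEv Brd-Hprt b-m2 given human BRCA1, collected on day 7. The RQ bodies carried R1699Q by the series design, while their array's own label reads R1669Q. The MI bodies carried M1652I, and the WT bodies carried wild-type human BRCA1, the DNA repair gene in which both substitutions lie. Each genotype was measured on 1 Affymetrix array, so no value has a replicate check or a test, the number of arrays limits the precision, and "higher" and "lower" refer to these arrays alone. The state of mouse Brca1, the number of stem cell clones and the pooling of bodies are not given in the sources used here.

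In mammals the methylation of control regions, set in the germ line, decides which parental copy is silent. Paternally expressed genes such as Igf2 tend to promote growth, and maternally expressed genes such as Cdkn1c and Grb10 tend to restrain it. In the Dlk1-Meg3 cluster the paternal copy gives the Dlk1 protein and the maternal copy gives the noncoding RNAs Meg3 and Rian. In the Igf2-H19 cluster the paternal copy gives the growth factor and the maternal copy the noncoding RNA H19. An array of total RNA does not tell the parental copies apart.

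The promoters of the Dlk1-Meg3 cluster are shown because its genes differed in opposite directions on the MI array. The sequences are RefSeq's, of build GRCm38.p6, and run from 250 bases before to 50 bases after the annotated start, all on the plus strand of chromosome 12. They are Dlk1 at chr12:109452573-109452872, the first of the 2 Meg3 windows at chr12:109540746-109541045, and Rian at chr12:109603695-109603994. Capitals mark TGCCGC, the core of the site bound by the imprint-protecting factor ZFP57, and the TATA motif TATAAA, both read on either strand.
Dlk1 promoter: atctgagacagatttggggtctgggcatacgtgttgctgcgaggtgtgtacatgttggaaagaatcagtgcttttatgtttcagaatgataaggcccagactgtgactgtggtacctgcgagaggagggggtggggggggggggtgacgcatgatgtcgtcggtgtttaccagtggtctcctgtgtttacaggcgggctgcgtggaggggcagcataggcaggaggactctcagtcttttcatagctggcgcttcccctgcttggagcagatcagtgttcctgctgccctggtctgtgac
Meg3 promoter: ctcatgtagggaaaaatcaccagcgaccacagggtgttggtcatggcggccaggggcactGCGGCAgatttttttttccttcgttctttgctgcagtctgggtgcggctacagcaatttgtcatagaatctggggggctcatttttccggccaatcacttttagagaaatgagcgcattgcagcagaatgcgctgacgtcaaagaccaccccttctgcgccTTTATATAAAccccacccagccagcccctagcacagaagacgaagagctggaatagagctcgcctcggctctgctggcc
Rian promoter: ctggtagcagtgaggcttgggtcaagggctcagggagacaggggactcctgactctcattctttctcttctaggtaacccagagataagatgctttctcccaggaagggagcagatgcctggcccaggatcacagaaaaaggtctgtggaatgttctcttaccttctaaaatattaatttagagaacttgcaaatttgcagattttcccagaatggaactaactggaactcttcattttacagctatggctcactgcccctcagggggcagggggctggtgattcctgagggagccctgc
The Meg3 window held 1 match to TGCCGC and 2 overlapping matches to TATAAA, 1 on each strand. The Dlk1 and Rian windows held no match to either motif, which says only that these letters are not in these windows. Among all 32851 windows of 300 bases, 11.6% held TGCCGC and 13.6% held TATAAA. The window held 9 CG dinucleotides for Dlk1, 13 for Meg3 and 0 for Rian, against a median of 7 over all windows. Of the 10 genes, 8 had a window in the table.

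Meg3, the maternally expressed long noncoding RNA, was lower in both mutants on each of its 5 strong probe sets. Strong here means a WT signal of log2 8.92 or more. The WT signal is also part of each difference, so this grouping favours values below WT. On these 5 probe sets the Meg3 signal was lowest in RQ, intermediate in MI and highest in WT. The probe set with the highest mean (1452183_a_at) read log2 8.52 in RQ, 9.32 in MI and 10.79 in WT. It was thus 4.80-fold lower in RQ than in WT (log2 difference -2.26) and 2.76-fold lower in MI (-1.47). In RQ against WT it ranked 32 from the lowest among the 12226 genes above the level filter. A gene is above the filter when the higher of the 2 arrays compared reaches log2 6.31, the median of all probe sets.

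The other Meg3 probe sets with a strong WT signal gave the same order. 1439380_x_at read 7.97 in RQ, 9.09 in MI and 10.52 in WT. 1452905_at read 7.71 in RQ, 8.71 in MI and 10.38 in WT and has the plain suffix _at, given to probes designed against a single transcript. 1426758_s_at read 7.65 in RQ, 8.32 in MI and 9.77 in WT. 1436713_s_at read 6.04 in RQ, below the level filter, 7.10 in MI and 8.92 in WT, so its difference of -2.88 in RQ may be understated. All 5 were thus more than 2-fold below WT in both mutants, and 1452905_at was the only one of them with the plain suffix _at.

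The 6 remaining Meg3 probe sets, all with the plain suffix _at, had WT signals of 7.54 or less and differed little. 1436057_at read 7.08 in RQ, 7.25 in MI and 7.54 in WT, the same order by a small amount. Its mean over the arrays, 7.29, was close to the 7.35 of 1436713_s_at, which is among the strong probe sets. All 11 Meg3 probe sets were below WT in RQ, by 0.08 to 2.88 on the log2 scale (5 of the 11 past 2-fold, as were 1.74% of all probe sets above the filter). In MI 9 of the 11 were below WT (5 past 2-fold below it, against 2.61% of all probe sets), with a range of -1.82 to 0.12. All 11 were also lower in RQ than in MI (-1.12 to -0.06, 3 past 2-fold, against 0.55% of all probe sets). Averaging them gave -1.27 in RQ and -0.76 in MI.

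**Figure D1:**
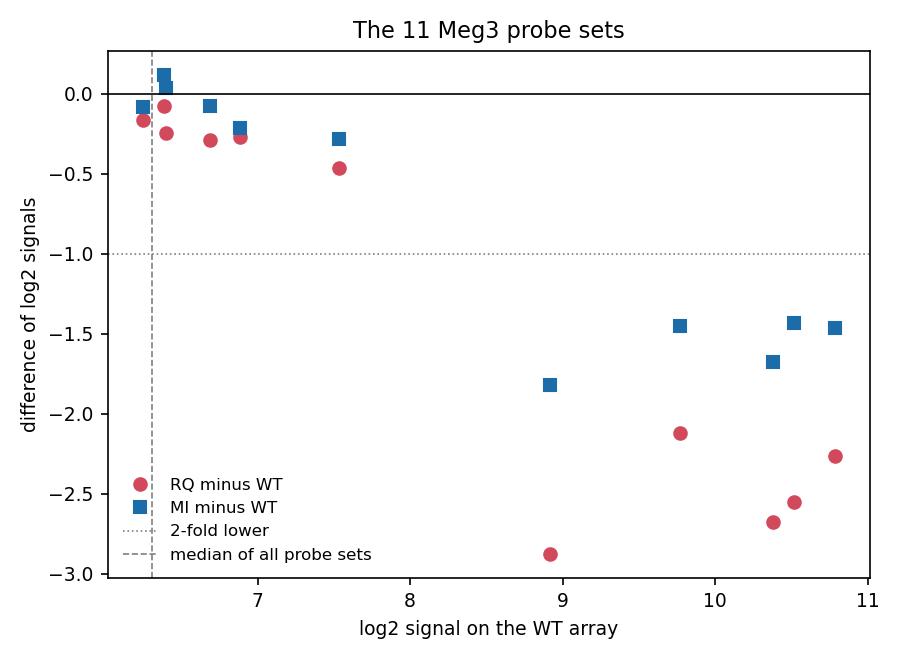
Difference of log2 signals against WT (vertical axis) for each of the 11 Meg3 probe sets, against the log2 signal of that probe set on the WT array (horizontal axis); circles are RQ minus WT, squares MI minus WT. The 5 probe sets with a WT signal of 8.92 or more lie past 2-fold below WT in both mutants, and the other 6 lie close to 0.

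Rian, a maternally expressed noncoding RNA that carries small nucleolar RNAs and microRNAs, followed Meg3 in order but by smaller amounts. Its strongest probe set (1427580_a_at) read 6.92 in RQ, 7.31 in MI and 7.59 in WT, a difference of -0.66 in RQ and -0.28 in MI, both short of 2-fold. All 4 Rian probe sets were below WT in both mutants. The other 3 had differences of -0.29 to -0.26 in RQ and of -0.29 to -0.01 in MI, with signals close to the level filter.

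Dlk1, a membrane protein with EGF repeats that holds back the differentiation of fat and other precursor cells, was high on the MI array alone. Probe set 1449939_s_at read 6.54 in RQ, 9.93 in MI and 6.79 in WT. The MI value was 8.78-fold above WT (3.13), the fifth highest difference among 12786 genes above the filter, and RQ was 10.5-fold below MI (-3.39). RQ and WT lay close together (-0.26). The suffix _s_at marks probes that can match several transcripts. The second Dlk1 probe set (1442724_at) was under the level filter on all 3 arrays, at 6.15 in RQ, 6.23 in MI and 6.05 in WT, and differed by only 0.18 in MI against WT. The value of Dlk1 thus rests on a single probe set.

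**Figure D2:**
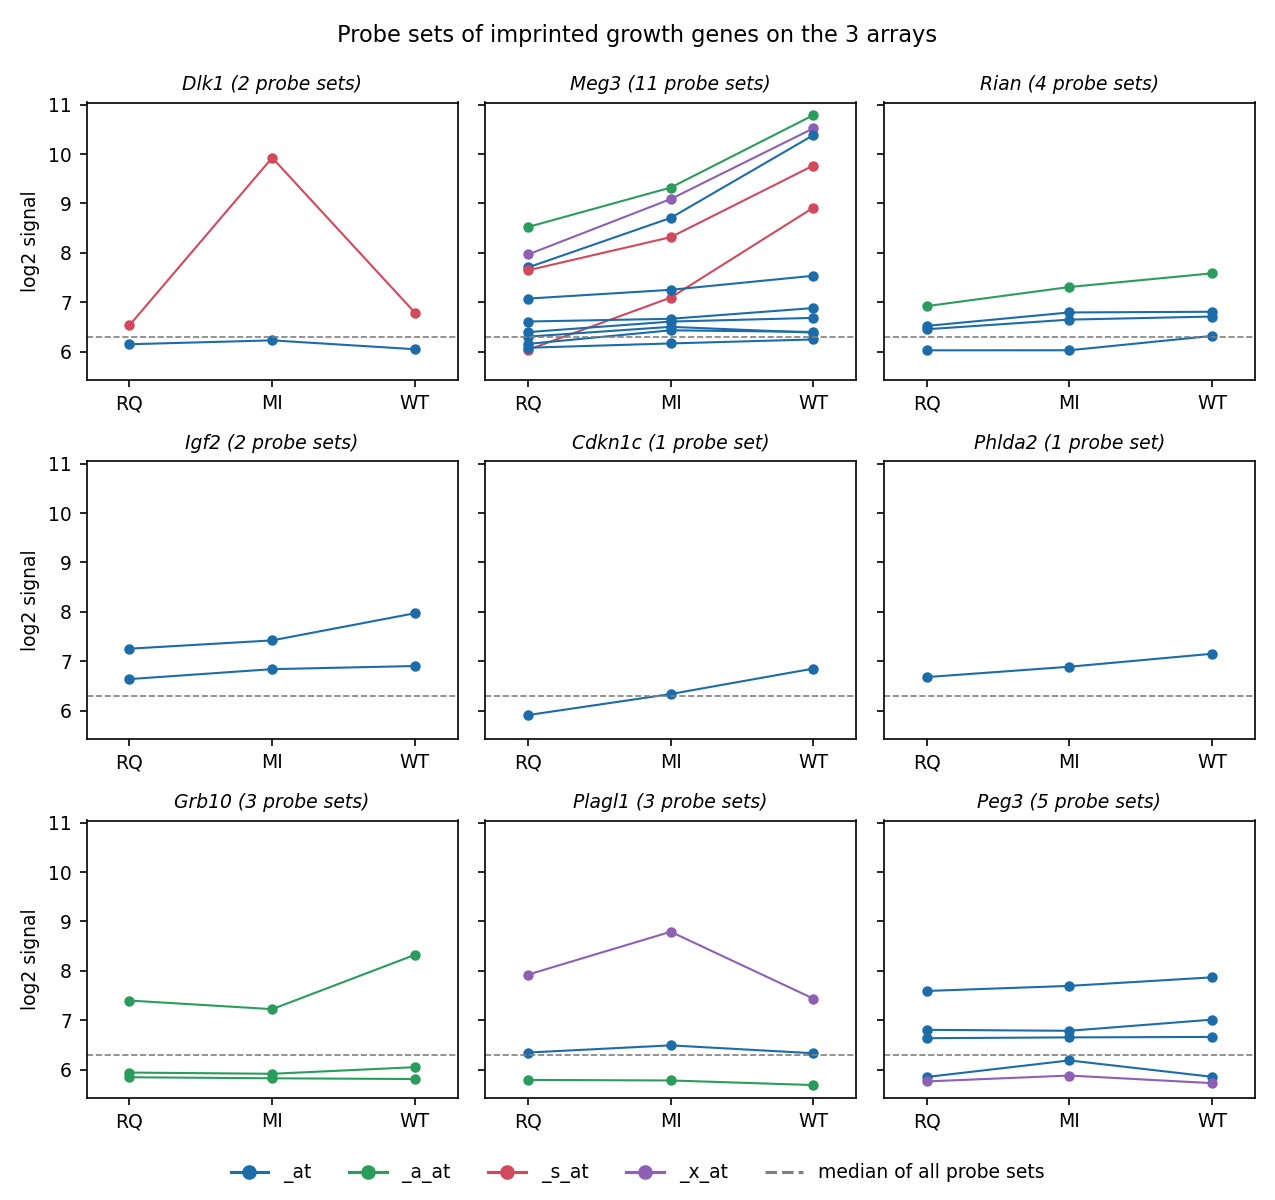
Log2 signal (vertical axis) of every probe set of the 9 measured genes on the RQ, MI and WT arrays, with a line joining each probe set and colours for the probe set class by ID suffix. The dashed line is the median of all probe sets (6.31). The 5 strong Meg3 probe sets climb from RQ through MI to WT, whereas 1 Dlk1 and 1 Plagl1 probe set peak in MI.

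Igf2, the fetal growth factor, was lower in both mutants by less than 2-fold. Its stronger probe set (1448152_at) read 7.26 in RQ, 7.42 in MI and 7.97 in WT, differences of -0.72 in RQ and -0.55 in MI. The second (1415931_at) read 6.64 in RQ, 6.84 in MI and 6.90 in WT, in the same order with differences of -0.26 in RQ and -0.06 in MI. H19 was not read, since the only probe set that names it also carries the symbol Mir675, the microRNA gene that lies within H19 in the RefSeq table. That probe set, singled out after its values were seen, read 8.54 in RQ, 7.76 in MI and 11.25 in WT. It was 6.51-fold lower in RQ than in WT (-2.70) and 11.2-fold lower in MI (-3.49), and is counted under neither gene.

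The 3 maternally expressed restrainers of growth were also below WT in both mutants. Cdkn1c encodes the cyclin-dependent kinase inhibitor p57, and its only probe set read 5.91 in RQ, 6.34 in MI and 6.85 in WT. Its differences of -0.94 in RQ and -0.51 in MI were short of 2-fold, and the RQ value lay below the level filter. Phlda2, which restrains growth of the placenta, read 6.68 in RQ, 6.89 in MI and 7.15 in WT on its only probe set (-0.47 in RQ and -0.26 in MI).

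Grb10, an adaptor that dampens insulin and insulin-like growth factor receptors, had the lowest signal in MI. Its strongest probe set (1425458_a_at) read 7.40 in RQ, 7.23 in MI and 8.32 in WT. This was 1.90-fold lower in RQ than in WT (-0.92) and 2.14-fold lower in MI (-1.10). The other 2 Grb10 probe sets were under the level filter on all 3 arrays and had differences from WT of -0.13 to 0.04. Their mean with the strongest was -0.33 in RQ and -0.41 in MI.

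Plagl1 and Peg3 encode paternally expressed zinc finger proteins, and Plagl1 is known in mice to regulate other imprinted genes. Plagl1 was the only one of the 9 genes whose strongest probe set was above WT in both mutants. That probe set (1426208_x_at) read 7.92 in RQ, 8.79 in MI and 7.44 in WT, 2.55-fold above WT in MI (1.35) and 1.40-fold above WT in RQ (0.49). The suffix _x_at marks probes with close matches elsewhere in the transcriptome. Probe set 1438588_at read 6.35 in RQ, 6.49 in MI and 6.33 in WT, close to the filter, with a difference of 0.16 in MI. The third was under the filter on all 3 arrays (0.10 in RQ and 0.09 in MI). The size of the Plagl1 difference therefore rests on a single probe set.

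Peg3 had the narrowest range of the 9 over the 3 arrays. Its strongest probe set (1417355_at) read 7.59 in RQ, 7.70 in MI and 7.87 in WT (-0.28 in RQ and -0.17 in MI). Over its 5 probe sets the differences ran from -0.28 to 0.03 in RQ and from -0.23 to 0.33 in MI, and 2 of the 5 were under the filter on all 3 arrays.

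**Figure D3:**
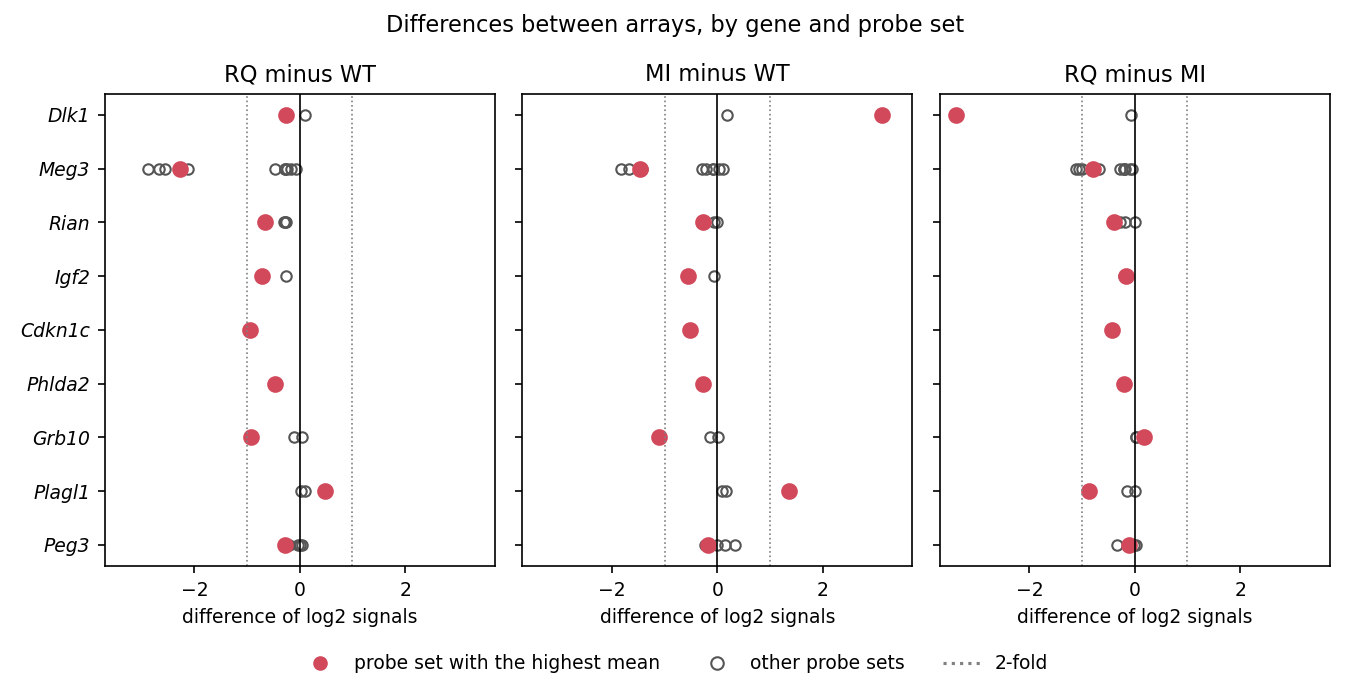
Difference of log2 signals (horizontal axis) between RQ and WT, MI and WT, and RQ and MI for each gene; filled points are the probe set with the highest mean and open points the other probe sets, with dotted lines at 2-fold. Meg3 has several probe sets past 2-fold below WT, and Dlk1 and Plagl1 have 1 probe set each past 2-fold above WT in MI.

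Counted by the probe set with the highest mean, all 9 genes passed the level filter in each comparison. In RQ against WT, 1 of the 9 (Meg3) lay past 2-fold on the lower side and 0 on the higher side, beside 1.49% of all genes lower and 1.68% higher. In MI against WT, 2 (Meg3 and Grb10) were past 2-fold lower and 2 (Dlk1 and Plagl1) past 2-fold higher, beside 2.44% of all genes lower and 0.516% higher. In RQ against MI, 1 (Dlk1) was past 2-fold lower and 0 higher, beside 0.508% of all genes lower and 1.98% higher. By probe set, 5 of 25 above the filter were past 2-fold lower in RQ against WT and 0 higher (1.74% and 1.85% of all probe sets). In MI against WT, 6 of 25 were lower and 2 higher (2.61% and 0.498% of all), and in RQ against MI, 4 of 24 were lower and 0 higher (0.55% and 2.36% of all). Meg3 held 10 of these 25 probe sets and all 5 of those lower in RQ against WT. It also held 5 of the 6 lower in MI against WT and 3 of the 4 lower in RQ against MI. Probe sets of 1 gene share their transcript and are not independent. The median difference of the 9 genes was -0.66 in RQ against WT (0.01 over all genes), -0.28 in MI against WT (0.06) and -0.39 in RQ against MI (-0.05). The comparisons with WT share the WT array. The strongest probe sets of Meg3, Rian, Igf2, Cdkn1c, Phlda2 and Peg3, 6 of the 9, were ordered from RQ up through MI to WT, as were 11.5% of all 12971 genes above the filter on their highest array. Only this order, the one Meg3 showed, was counted over all genes, so the shares do not test it. Cdkn1c lay below the filter in RQ (5.91), and Peg3 differed by only -0.10 in RQ against MI.

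Genes with high signals read lower on the MI array, which touches the Meg3 values. Among genes with a mean level of 9 to 10, the median difference of MI against WT was -0.36, and that of RQ against MI was 0.39. After a lowess correction the Meg3 difference was -1.11 in MI against WT and -1.10 in RQ against MI, against -0.80 without it. With that correction 3 genes (Dlk1, Meg3 and Plagl1) were past 2-fold below MI in RQ. The share of all genes lower in RQ than in MI was then 0.617%. Quantile normalization again also gave 3, of 8 members above the filter, beside 0.843% of all genes. Under it 0.852% of all genes were past 2-fold above WT in MI and 1.54% past 2-fold below it. The 18 probe sets for bacterial and phage spike transcripts, which serve as hybridization controls, had a median difference from WT of -0.64 in RQ (-1.38 to -0.42) and of -0.80 in MI (-1.48 to -0.36). The 5 strong Meg3 probe sets lay below all of the spikes in RQ (-2.88 to -2.12) and below their median in MI (-1.82 to -1.43). In MI, however, 1452183_a_at (-1.47), 1426758_s_at (-1.45) and 1439380_x_at (-1.43) were still within the range of the spikes. Only 1452905_at (-1.67) and 1436713_s_at (-1.82) lay below that range in MI. The strongest probe sets of Rian, Igf2, Cdkn1c, Phlda2 and Grb10 lay within the range of the spikes in RQ (-0.94 to -0.47). In MI those of Grb10 (-1.10), Igf2 (-0.55) and Cdkn1c (-0.51) lay within that range. Those of Rian (-0.28) and Phlda2 (-0.26) lay above it. The part of this offset in the values was not tested.

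Most genes in the wider set of imprinted genes lay within 2-fold of WT. Of 18 maternally expressed genes above the filter, 2 were past 2-fold below WT in RQ (Meg3 and Gnas), beside 1.49% of all genes. Of the 18, 11 were below 0 in RQ (median -0.14). Gnas, which encodes the stimulatory G protein subunit, read 9.73 in RQ, 10.02 in MI and 10.98 in WT. In MI 2 were past 2-fold lower (Meg3 and Grb10) and 1 past 2-fold higher, beside 2.44% and 0.516% of all genes. The higher gene was Dcn, the matrix proteoglycan decorin, imprinted in mouse placenta, which read 6.48 in RQ, 9.54 in MI and 6.57 in WT. Without the members, the 13 other maternally expressed genes had a median of 0.03 in RQ and 0.03 in MI, near that of all genes. Of these 13, 1 was past 2-fold lower in RQ (Gnas) and 1 past 2-fold higher in MI (Dcn).

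Paternally expressed genes were centred near WT. Of 18 above the filter in RQ against WT, 0 were past 2-fold in either direction (median 0.01). Over all genes the shares were 1.68% higher and 1.49% lower. Of 19 in MI, 2 were past 2-fold higher, both of them members (Dlk1 and Plagl1), and 0 lower. Over all genes these shares were 0.516% and 2.44%. The median of the 19 was 0.07. The most distant others in RQ were Sfmbt2, a polycomb-related gene of the trophoblast (-0.95), and Mest, a hydrolase gene (0.58). In MI they were Sfmbt2 (-0.79) and Slc38a4, an amino acid transporter gene (-0.44), and Slc38a4 was also the most distant in RQ against MI (0.70). A network described around Plagl1 in mice held 14 genes above the filter, 7 of them outside the imprinted growth genes. In MI 3 lay past 2-fold above WT (Dlk1, Plagl1 and Dcn) and 2 below it (Meg3 and Grb10). Over all genes the shares were 0.516% and 2.44%. In RQ the same list had 0 higher and 2 lower (Meg3 and Gnas), beside 1.68% and 1.49% of all genes. Among the 7 others, 1 was higher (Dcn) and 0 lower in MI, and 0 were higher and 1 lower (Gnas) in RQ.

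**Figure D4:**
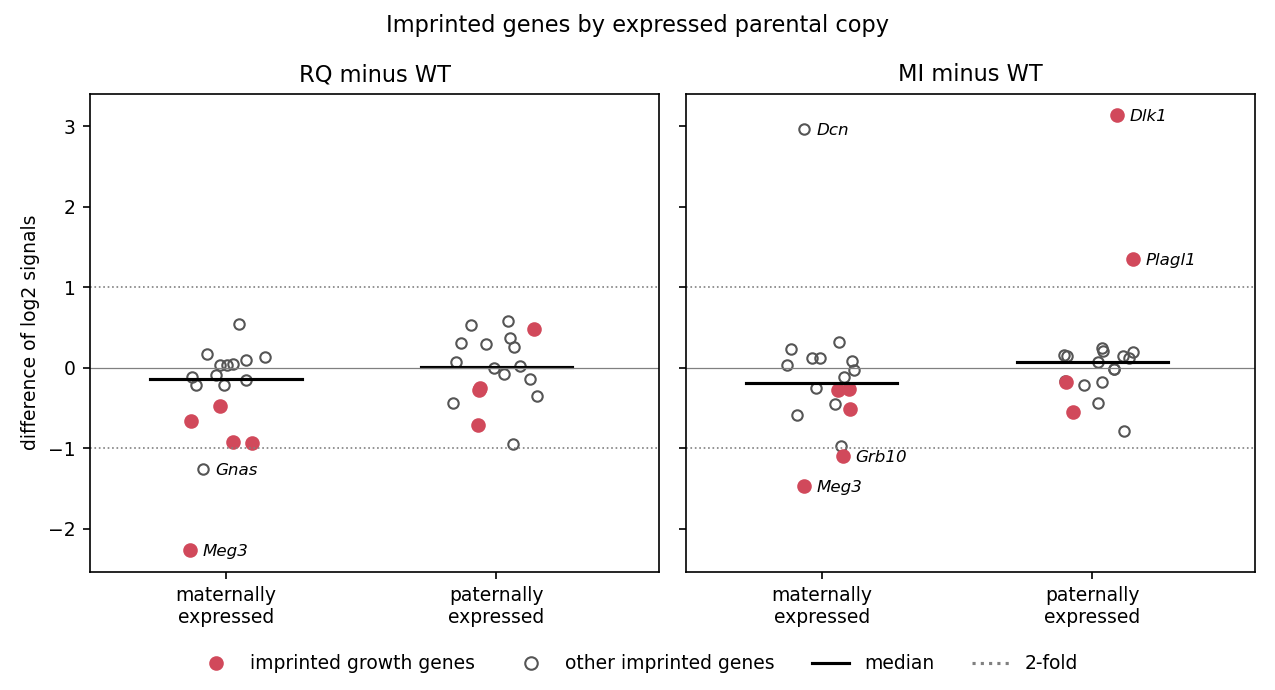
Difference of log2 signals (vertical axis) of RQ against WT and MI against WT for maternally and paternally expressed imprinted genes above the level filter; filled points are the imprinted growth genes, open points the other imprinted genes, bars the medians and dotted lines 2-fold. Genes past 2-fold are named, and the medians of both classes lie between -0.18 and 0.07.

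Genes that flank the clusters were mixed. In the Dlk1-Meg3 region, 3 listed neighbours passed the filter. Mirg, a noncoding RNA gene beyond Rian, read 6.34 in RQ, 6.37 in MI and 6.25 in WT, close to the filter. Ppp2r5c, a phosphatase subunit gene, differed by -0.68 in RQ and -0.41 in MI, and Wars by 0.00 in RQ and 0.10 in MI. Near Igf2, 4 other genes passed the filter, and 1 was past 2-fold lower in each mutant, beside 1.49% of all genes in RQ and 2.44% in MI. This was Mrpl23, a mitochondrial ribosomal protein gene, which read 8.86 in RQ, 8.59 in MI and 9.91 in WT (-1.05 and -1.32). Ctsd, the lysosomal protease cathepsin D, differed by -0.99 in RQ and -0.93 in MI. Lsp1 (-0.11 in RQ and -0.04 in MI) and Ins2 (-0.06 and 0.02) differed little.

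Around Cdkn1c and Phlda2, none of the 8 other genes above the filter was past 2-fold in either mutant. Over all genes 1.68% were past 2-fold higher and 1.49% lower in RQ, and 0.516% and 2.44% in MI. Counts of 0 in such short lists therefore say little. The most distant in RQ was Cars, the cysteinyl-tRNA synthetase gene, which read 8.60 in RQ, 7.88 in MI and 7.76 in WT (0.84 in RQ against WT and 0.73 in RQ against MI). Cd81, a tetraspanin, differed by -0.21 in RQ and -0.59 in MI, and Kcnq1ot1, the paternally expressed noncoding RNA of that domain, by 0.31 in RQ and -0.17 in MI. Next to Grb10, Cobl, an actin nucleator, read 8.71 in RQ, 6.81 in MI and 6.69 in WT, high in RQ alone. Fignl1, a recombination factor, was above WT in both mutants (1.10 in RQ and 1.16 in MI). Beside Plagl1, 0 of 5 other genes passed 2-fold against WT, with Ltv1, a ribosome assembly factor, at 0.76 in RQ and 0.23 in MI. Utrn, the gene of the cytoskeletal protein utrophin, read 8.51 in RQ, 7.43 in MI and 8.03 in WT, above WT in RQ (0.48), below it in MI (-0.60) and past 2-fold higher in RQ than in MI (1.08). Around Peg3, 0 of 2 other genes in RQ and 0 of 3 in MI were past 2-fold, with Zfp787, a zinc finger gene, the most distant at -0.43 in RQ and -0.28 in MI.

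A list of genes that write, keep or remove imprints and DNA methylation held 16 genes above the filter in RQ against WT. Of these, 3 were past 2-fold above WT (Tet1, Tet2 and Zfp445) and 1 past 2-fold below it (Dnmt3l), beside 1.68% of all genes higher and 1.49% lower. Differences above 0 were found for 13, most of them short of 2-fold, with a median of 0.70. In MI 1 of 15 was past 2-fold above WT (Dppa3) and 3 below it (Dnmt3l, Dnmt3b and Uhrf1), beside 0.516% and 2.44% of all genes, with a median of -0.17. The methyltransferase gene Dnmt3b read 8.25 in RQ, 7.33 in MI and 9.03 in WT (-0.78 in RQ and -1.70 in MI). Uhrf1, which recruits the maintenance methyltransferase, read 8.42 in RQ, 7.50 in MI and 8.61 in WT (-0.19 in RQ and -1.11 in MI). Dnmt3l, the cofactor that directs imprint methylation in germ cells, read 8.55 in RQ, 7.52 in MI and 10.20 in WT. Tet1 and Tet2 encode methylcytosine oxidases that act in demethylation. Tet1 read 10.32 in RQ, 9.05 in MI and 9.01 in WT. Tet2 read 8.57 in RQ, 6.84 in MI and 6.97 in WT. Zfp445, a zinc finger protein that protects imprints, read 8.14 in RQ, 6.64 in MI and 6.82 in WT, the same order of arrays as Tet2. Dppa3, which protects the maternal genome from demethylation after fertilization, read 8.58 in RQ, 9.74 in MI and 7.88 in WT. Their part in the values of the imprinted genes was not tested.

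The partner pathways of the members held few genes past 2-fold, and few would be looked for in lists of this size. Over all genes 1.68% were past 2-fold higher and 1.49% lower in RQ against WT, and 0.516% and 2.44% in MI. Of 14 other genes of the insulin-like growth factor pathway above the filter in RQ against WT, and of 15 in MI against WT, 0 were past 2-fold. Igfbp4, a binding protein that sequesters the factors, was the most distant in both, at -0.67 in RQ and 0.88 in MI, with 8.26 in RQ, 9.80 in MI and 8.93 in WT. In RQ against MI it was 2.92-fold lower (-1.54). Among the other genes of the Notch pathway, to which Dlk1 is related by its EGF repeats, 0 of 9 were past 2-fold against WT, with the ligand Dll1 at -0.86 in RQ and -0.997 in MI, just short of 2-fold. Rbpj, the DNA-binding effector of the pathway, read 10.22 in RQ, 9.44 in MI and 9.28 in WT, 1.92-fold above WT in RQ (0.94) and 0.79 above MI on the log2 scale. Among the other inhibitors of cyclin-dependent kinases, Cdkn1b, which encodes p27, read 6.85 in RQ, 6.46 in MI and 7.73 in WT (-0.87 in RQ and -1.26 in MI), past 2-fold lower in MI. The other 4 above the filter were not past 2-fold, and Cdkn2b, which encodes p15, was the most distant of the list in RQ against MI (-0.48).

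Genes with the most similar pattern were sought among 12971 genes by the distance between their pairs of differences, RQ minus WT and MI minus WT, over the 3 arrays. Nearest to Dlk1 were Anxa1 (distance 0.15 log2 units), Cd44 (0.20) and Dcn (0.23), which encode an annexin, the hyaluronan receptor and decorin. Anxa1 read 6.87 in RQ, 10.13 in MI and 6.98 in WT. Cd44 was under the level filter in RQ (5.98) and WT (6.10), so its RQ difference compares weak signals. Nearest to Meg3 were Erdr1 (0.12), Gadd45g (0.12), a growth arrest gene, and the Y-linked Uba1y (0.17). Gadd45g read 5.81 in RQ, 6.48 in MI and 7.95 in WT. Both Gadd45g and Uba1y (5.59) were under the level filter in RQ. Asah1 (0.02), Hnrnpa1 (0.03) and Stard10 (0.04) were nearest to Grb10, and Mbnl1 (0.03), Rnf213 (0.20) and Aqp3 (0.28) to Plagl1. The other 5 measured members spanned less than 1 log2 unit and were not matched.

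Some markers of other cell types moved on the same arrays as the members. Of 16 fibroblast and mesenchyme markers, 13 were above the filter in MI against WT. Of these, 7 were past 2-fold above WT, beside 0.516% of all genes. They were Col1a2, by 1.64, and Dcn, Vim, S100a4, S100a6, Cd44 and Bgn, by 2.48 to 3.80 on the log2 scale. The others above the filter (Col1a1, Col3a1, Pdgfrb, Postn, Prrx1 and Twist2) differed by only 0.05 to 0.46 in MI against WT. The summed linear signal of the 16 was 1351 in RQ, 7089 in MI and 1503 in WT, highest in MI as for Dlk1. Most of the MI sum came from the markers past 2-fold, so it does not stand for a shift of the whole list. The fibroblast markers Thy1, Lum and Twist1 were under the level filter on all 3 arrays. The labels say that feeder cells were removed before the bodies were formed, and whether any remained was not tested. In bulk samples fewer cells of a type and less RNA per cell cannot be told apart.

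Most parietal endoderm markers were lower in both mutants, as were Meg3 and the Mir675 and H19 probe set, while visceral endoderm markers were split. For the counts below, the shares of all genes past 2-fold were 1.68% higher and 1.49% lower in RQ against WT. In MI against WT they were 0.516% and 2.44%. Of 10 parietal endoderm and basement membrane markers, 9 were above the filter against WT. Of these, 7 were past 2-fold below WT in RQ and 7 in MI. The summed linear signal of the 10 was 1991 in RQ, 2350 in MI and 13738 in WT. The most distant was Lama1, a laminin chain gene, which read 5.98 in RQ, 6.11 in MI and 9.93 in WT. Of 13 visceral and yolk sac endoderm markers, 10 were above the filter, and 4 of these (Cubn, Dab2, Lrp2 and Amn) were past 2-fold below WT in both mutants. Cubn, an endocytic receptor gene, read 6.09 in RQ, 6.08 in MI and 10.67 in WT. The other 6 (Afp, Ttr, Apob, Sox17, Hnf4a and Gata6) lay within 2-fold of WT, with differences of -0.26 to 0.07 in RQ and of 0.01 to 0.27 in MI, and the median of the 10 was -0.20 in RQ and 0.03 in MI. The sum over the 13 was 1099 in RQ, 1269 in MI and 3855 in WT, and Foxa2, Gata4 and Apoa1 were under the filter on all 3 arrays. All 10 pluripotency markers lay above the filter on every array, with sums of 33743 in RQ, 21988 in MI and 23643 in WT. In RQ 5 of them were past 2-fold above WT (Zfp42, Klf2, Nanog, Klf4 and Sox2, by 1.23 to 1.93 on the log2 scale) and 0 below it, and in MI 2 were above (Nanog and Klf4) and 2 below (Utf1 and Pou5f1). Trophoblast sums were 1202 in RQ, 927 in MI and 797 in WT. Only Tfap2c among these markers was past 2-fold, at 9.49 in RQ, 8.71 in MI and 8.39 in WT, with Eomes and Hand1 at 0.11 to 0.28 from WT and Cdx2, Elf5 and Ascl2 under the filter on all 3 arrays. Mesoderm sums were 899.8 in RQ, 881.8 in MI and 788.5 in WT, and only Tcf15 was past 2-fold, at 7.75 in RQ, 6.85 in MI and 6.70 in WT. The part of these cell types in the values of the imprinted genes was not tested.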

How the data were processed

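Total RNA of day 7 embryoid bodies (6 ug per sample, per the labels) was hybridized to Affymetrix mouse arrays, 1 per genotype. The deposited values are log2 signals of 45101 probe sets. The submitters' processing notes name Partek and RMA, a method that subtracts background, equalizes arrays and summarises probes, but give neither versions nor the order of steps. The quartiles of the 3 columns were close but not identical. The MI column had a narrower spread, with a standard deviation of 1.06 against 1.17 in RQ and 1.17 in WT. Its median was 6.35, against 6.28 in RQ and 6.29 in WT. With no scanner files or detection calls used here, absence of a transcript was not called, and weak signals are compressed towards background.

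Gene names came from the platform annotation, in which 34945 had 1 symbol, 932 several and 9160 none, besides 64 controls. Entrez identifiers of 34741 matched the RefSeq table of GRCm38.p6, and 0 symbols changed. Each gene was counted by the probe set with the highest mean, at a 2-fold limit and above a level of log2 6.31 on the higher array. There was no test, since each genotype had 1 array. The counting was tested on simulated data.

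The named genes are all members with every probe set, from the other lists the gene with the largest difference in each comparison and some of the next 2, and the 3 genes nearest in pattern to each member that spans 1 log2 unit. There were 13 lists of imprinted, neighbouring and pathway genes and 6 of cell type markers. Uhrf1, markers past 2-fold outside these ranks and the markers listed beside them were named after their values were seen. The members and lists were chosen with earlier results of these data known. Alternatives were median centring, quantile normalization, lowess (span 0.3, 3 iterations), other filters (none, 75th percentile) and limits (1.5-fold, 3-fold), means of probe sets, and leaving out suffixed probe sets. Python 3.11.15, pandas 2.3.3 and statsmodels 0.14.6 were used.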

Additional observations from a re-analysis of the deposited data

How the results depend on the processing

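With 1 array per genotype, depth and replicate spread cannot be given, and signals near the filter limit what small differences show. A gene's difference was taken to have moved when it shifted by more than 1.5-fold (0.58 on the log2 scale). Of 186 gene differences under the alternatives, 171 stayed within that margin, 15 moved and 0 of those past 2-fold changed sign. With the mean of probe sets, 1 gene was at least 2-fold higher in MI than in WT in place of 2, and 0 at least 2-fold lower in place of 2, beside 0.430% and 1.81% of all genes. Dlk1 was then at 1.66, Plagl1 at 0.54, Meg3 at -0.76 and Grb10 at -0.41 in MI, and Meg3 at -1.27 in RQ. Averaging brings in probe sets with little signal. Leaving out all suffixed probe sets (_a_at, _s_at and _x_at) left 0 genes higher and 1 (Meg3) lower in MI than in WT, of 7 above the filter and beside 0.518% and 2.22% of all genes, with Dlk1 at 0.18 and Plagl1 at 0.16, and the 1 gene lower in RQ than in MI was then Meg3 in place of Dlk1 (0.453% of all). Leaving out _s_at and _x_at alone, chosen after seeing the data, gave 0 higher in MI than in WT (0.486% of all) and 0 lower in RQ than in MI (0.478% of all), of 8 above the filter. Quantile normalization and the lowess correction each gave 3 lower in RQ than in MI in place of 1 (0.843% and 0.617% of all). At a 1.5-fold limit 5 genes were lower in RQ than in WT in place of 1 (4.34% of all genes at that limit), and 3 lower in RQ than in MI in place of 1 (1.55% of all). At a 3-fold limit 1 was higher and 0 were lower in MI than in WT (0.164% and 0.540% of all). Counting the probe set of Mir675 and H19 as a member, also chosen after seeing the data, gave 2 lower in RQ than in WT and 3 lower in MI than in WT (1.497% and 2.45% of all). Median centring and both other level filters left every count as it was. No paired analysis was possible because each genotype had 1 array.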

Other observations

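Promoter windows of the remaining members varied in CG content. The first Grb10 window held 45 CG dinucleotides, more than 98.1% of all windows, and those of Plagl1 and Phlda2 held 26 each, more than 83.1%. The 4 Igf2 windows held 2, 14, 24 and 7. TGCCGC was matched in 1 window each of Igf2, Grb10 and Plagl1, besides Meg3.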
